A study of Mus musculus with 10 samples.

Results

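Tnf, 4 related ligand genes (Lta, Ltb, Tnfsf9 and Tnfsf10) and 3 receptor genes (Tnfrsf1a, Tnfrsf1b and Fas) were followed in mouse macrophages given a low or a high dose of a TLR4 agonist. These 8 genes were taken by symbol from the 23284 genes of the count table. No cut-off on their values was used, but earlier results of these data were known. Of the 8, 7 passed the filter on low counts. The cells were bone marrow derived macrophages of strain C57BL/6J, grown for 6 days in medium with recombinant mouse M-CSF, with no genetic change named in the labels. The agonist was Kdo2-lipid A, the lipid A part of a bacterial lipopolysaccharide with Kdo sugars attached, which is sensed by TLR4 with MD-2. The 5 groups sequenced were untreated cells at 0 h, 0.03 nM for 1 h, 0.03 nM for 2 h, 10 nM for 1 h and 10 nM for 2 h. Each group had 2 libraries of polyadenylated RNA, 1 from each of 2 experiments that the series describes as independent, which makes 10 libraries. No untreated group was taken at 1 h or 2 h, so treatment and time in culture after the start cannot be told apart in a comparison with untreated cells. The labels do not say whether the experiments used different mice, so the p-values measure the spread between these cultures.

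TNF is a cytokine made as a membrane protein in the shape of a trimer and released by the protease ADAM17. It binds TNFR1 (Tnfrsf1a), which carries a death domain and is found on most cells, and TNFR2 (Tnfrsf1b), which recruits TRAF proteins and is found mainly on immune and endothelial cells. Lymphotoxin alpha (Lta) forms soluble trimers that bind the same receptors, or joins lymphotoxin beta (Ltb) in a membrane complex that binds Ltbr. Tnfsf9 (4-1BB ligand) binds Tnfrsf9, Tnfsf10 (TRAIL) binds the death receptor Tnfrsf10b and decoy receptors, and Fas is the death receptor for Fas ligand (Fasl). In macrophages Tnf is a classic early target of TLR4, and its messenger carries AU-rich elements in the 3′ UTR that bind the decay factor Zfp36.

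Tnf, Lta and Ltb lie side by side in the genome and differed widely in level after treatment, and Fas and Tnfrsf1b rose most of the receptor members. The sequences below therefore show the stretch just upstream of the start of these 5 members. Each is the 250 bases before the transcription start, 5′ to 3′ on the gene's own strand, from RefSeq on GRCm38.p6. Windows were found for 7 of the 8 members, all but Tnfsf9. Capitals mark matches to 5 motifs searched on both strands: the NF-kB consensus, AP-1 (TGANTCA), the cyclic AMP response element (TGACGTCA), the interferon-stimulated response element core (ISRE core) and the TATA box (TATAAA).
Tnf, chr17:35202008-35202257, minus strand: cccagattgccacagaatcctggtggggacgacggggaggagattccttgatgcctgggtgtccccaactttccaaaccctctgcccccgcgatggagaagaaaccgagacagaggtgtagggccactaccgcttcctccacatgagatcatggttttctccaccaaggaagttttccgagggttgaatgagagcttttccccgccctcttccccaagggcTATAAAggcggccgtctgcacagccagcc
Lta, chr17:35205352-35205601, minus strand: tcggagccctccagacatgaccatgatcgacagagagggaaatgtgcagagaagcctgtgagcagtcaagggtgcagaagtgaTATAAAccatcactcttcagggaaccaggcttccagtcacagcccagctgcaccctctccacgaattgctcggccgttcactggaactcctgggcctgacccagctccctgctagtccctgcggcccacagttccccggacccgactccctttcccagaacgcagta
Ltb, chr17:35194257-35194506, plus strand: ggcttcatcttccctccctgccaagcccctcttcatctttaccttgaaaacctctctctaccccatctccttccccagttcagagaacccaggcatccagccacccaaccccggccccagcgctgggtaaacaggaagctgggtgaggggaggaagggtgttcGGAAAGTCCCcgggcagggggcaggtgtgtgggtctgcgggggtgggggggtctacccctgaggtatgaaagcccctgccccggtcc
Tnfrsf1b, chr4:145246871-145247120, minus strand: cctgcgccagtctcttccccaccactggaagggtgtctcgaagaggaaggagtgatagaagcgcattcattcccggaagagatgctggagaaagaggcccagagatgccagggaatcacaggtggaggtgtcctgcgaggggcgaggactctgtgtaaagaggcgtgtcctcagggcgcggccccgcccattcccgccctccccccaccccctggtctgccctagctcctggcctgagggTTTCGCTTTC
Fas, chr19:34290409-34290658, plus strand: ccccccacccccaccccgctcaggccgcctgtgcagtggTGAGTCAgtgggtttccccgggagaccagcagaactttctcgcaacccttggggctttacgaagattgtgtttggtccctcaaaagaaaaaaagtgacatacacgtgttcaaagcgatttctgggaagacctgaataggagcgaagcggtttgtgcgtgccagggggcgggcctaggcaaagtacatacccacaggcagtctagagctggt
The Tnf window held a TATA box 29 to 24 bases before the start. The Lta window held the same letters 167 to 162 bases before its start. The Ltb window held an NF-kB consensus match on the opposite strand, 87 to 78 bases before the start. The Tnfrsf1b window ended in an ISRE core match on the opposite strand (bases 10 to 1 before the start), and the Fas window held an AP-1 match 211 to 205 bases before the start. The windows of Tnfsf10 and Tnfrsf1a held no match. Of 32851 RefSeq promoter windows of this length, 12.4% held the TATA box, 7.25% the NF-kB consensus, 6.75% AP-1, 2.98% the ISRE core and 1.55% the cyclic AMP element. A match describes letters, not binding, and sites further upstream were not searched. No printed match overlapped another.

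The AU-rich part of the Tnf messenger is shown because the level of Tnf fell between 1 h and 2 h at the high dose. In the GENCODE M21 annotation of GRCm38 the Tnf 3′ UTR is 764 bases long and holds ATTTA 8 times and the longer TTATTTATT 5 times, overlapping copies included. The 30 bases with the most copies start at base 437 of the UTR and hold 5 of them (ATTTA in capitals).
Tnf 3′ UTR site: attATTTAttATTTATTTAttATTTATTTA
Lta had 3 copies of ATTTA and 1 of the longer element in 572 bases. Tnfsf9 had 2 copies of ATTTA in 253 bases, Tnfsf10 had 8 in 3998 bases and Tnfrsf1b had 2 in 2324 bases, all without the longer element. Ltb, Tnfrsf1a and Fas had none. Of 20921 genes with a 3′ UTR, 64.7% held ATTTA and 7.56% held TTATTTATT. Among the members the longer element was in Tnf and Lta only. This search was added after the values had been seen. Whether these elements had a part in the fall of Tnf was not tested.

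Library totals ran from 33179599 to 42167096 counts. The defining macrophage markers were high in each library, with Csf1r, the M-CSF receptor, at 3735 to 4401 CPM. CPM is a count relative to its library's total, after that total was scaled by edgeR's TMM method. The 9 markers on the macrophage list summed to 28192 to 37294 CPM. The 9 T and NK cell markers summed to 0 to 0.582 CPM, with Gzma at 0 in each library. The 5 B cell markers summed to 4.92 to 9.74 CPM, the 6 dendritic cell markers to 7.93 to 14.9 CPM, the 5 mast cell markers to 2.37 to 4.30 CPM with Mcpt4 and Tpsb2 at 0, and the 6 neutrophil markers to 14.5 to 31.1 CPM. The 8 stromal and endothelial markers summed to 40.8 to 60.8 CPM in experiment 1 and 69.0 to 104 CPM in experiment 2. On this scale the stromal, neutrophil and dendritic sums were each highest in both experiments at 10 nM for 2 h. Tnfsf10, Tnfrsf1a, Tnfrsf1b and Fas were also highest in that group. There the neutrophil list summed to 31.1 and 26.3 CPM, against at most 22.6 and 18.2 CPM in other groups of the same experiment. In unscaled counts the stromal sums there were 1853 and 3028, against 1975 and 3138 at 0.03 nM for 1 h, where totals were smaller. For the dendritic list these counts were 455 and 428, against 540 and 444. The stromal markers were split: libraries at 10 nM for 2 h held the highest Kdr (27.5 CPM) and Pdgfrb (9.61 CPM) but the lowest Col1a1 (4.76 CPM) and Col1a2 (8.18 CPM). The part of these cells in the members' levels was not tested. In bulk RNA, fewer cells of a type and less RNA per cell cannot be told apart.

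Levels of one gene are given as CPM, with library sizes scaled by edgeR's TMM method, and compared between groups as log2 fold changes ± standard error (SE). Tests are edgeR's quasi-likelihood test on the counts, with Benjamini-Hochberg adjustment over 12918 genes, and a gene is said to rise or fall where the adjusted p is below 0.05. Levels of different genes are compared only in TPM, a gene's share of all transcripts after division by exonic length.

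**Figure D1:**
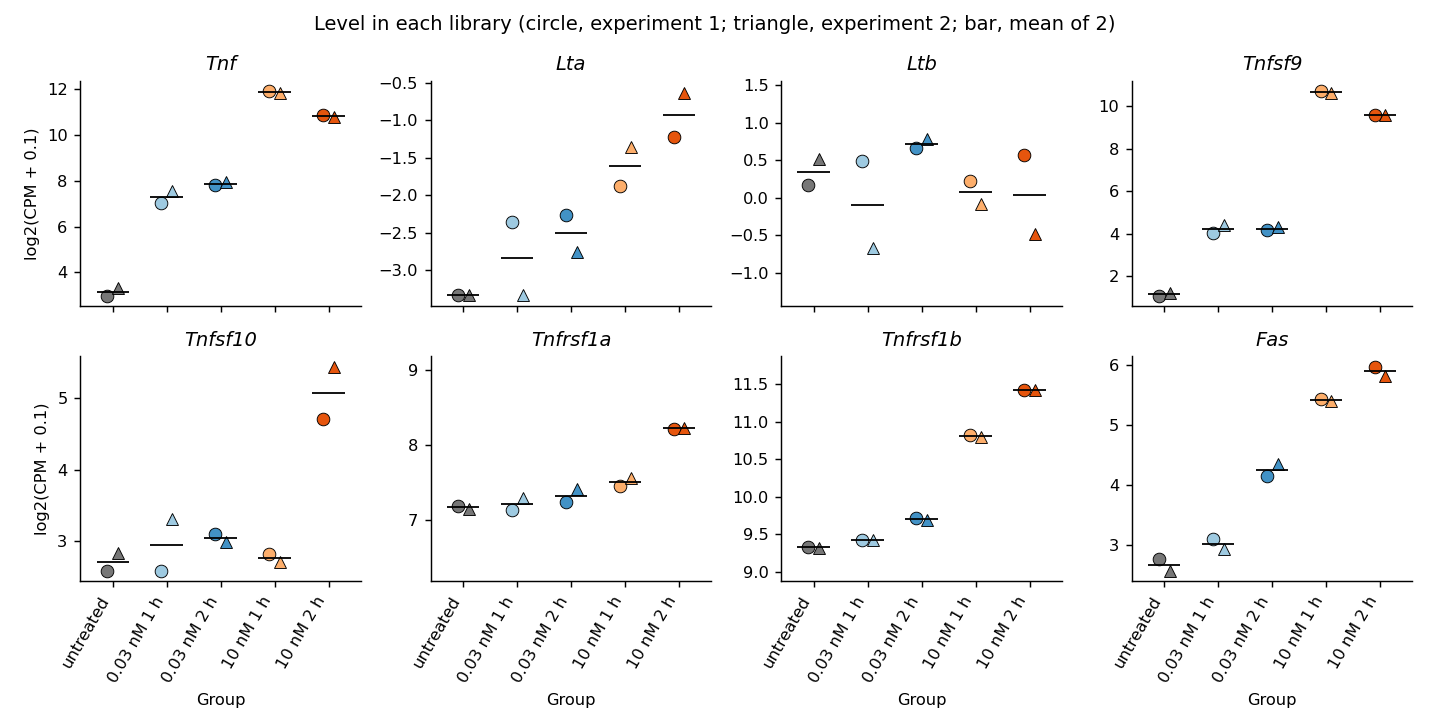
Level of each of the 8 genes in each library, as log2(CPM + 0.1), by group; each panel has its own vertical scale, circles are experiment 1, triangles are experiment 2 and the bar is the mean of the 2 libraries. Tnf and Tnfsf9 were highest at 10 nM for 1 h, whereas Tnfsf10, Tnfrsf1a, Tnfrsf1b and Fas were highest at 10 nM for 2 h.

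Tnf had the largest fold change of the tested members at the low dose and, with Tnfsf9, the highest levels at the high dose. It lies on chromosome 17 in the mm9 coordinates of the count table (chr17:35336336-35338941, minus strand, 4 exon intervals, 1618 exonic bases). Untreated cells had 7.77 and 9.88 CPM in experiments 1 and 2. After 0.03 nM the values were 130 and 187 CPM at 1 h, and 222 and 243 CPM at 2 h. After 10 nM they were 3835 and 3662 CPM at 1 h, and 1855 and 1778 CPM at 2 h. No 2 groups overlapped, and the order from low to high was untreated, 0.03 nM at 1 h, 0.03 nM at 2 h, 10 nM at 2 h and 10 nM at 1 h. Against untreated cells Tnf rose 17.9-fold at 0.03 nM for 1 h (log2 4.17 ± 0.18, edgeR adjusted p = 1.8e-06) and 26.4-fold at 2 h (log2 4.72 ± 0.19). It rose 425-fold at 10 nM for 1 h (log2 8.73 ± 0.22, edgeR adjusted p = 8.5e-10) and 206-fold at 2 h (log2 7.69 ± 0.21). Among the 12918 tested genes its fold change ranked 15th from the top at 0.03 nM for 1 h and 26th at 10 nM for 1 h. In a fit of only the 2 groups compared, the 0.03 nM 1 h change kept its size (log2 4.17) with an edgeR adjusted p of 0.101.

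In TPM, Tnf went from 11.6 and 15.2 in untreated cells, at ranks 7415 and 6803 of the table's genes, to 4567 and 4426 at 10 nM for 1 h, at ranks 17 and 18. At 0.03 nM it already stood at ranks 768 and 539 after 1 h and 475 and 460 after 2 h. It stood at ranks 59 and 62 at 10 nM for 2 h.

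Tnfsf9, the ligand of the costimulatory receptor 4-1BB, had the largest rise of the members at 10 nM and a much smaller one at 0.03 nM. The gene lies on the same chromosome but away from Tnf (chr17:57244808-57247180 in mm9, plus strand, 1230 exonic bases). Untreated cells had 2.00 and 2.19 CPM. The 0.03 nM groups had 16.1 and 21.3 CPM at 1 h, and 17.7 and 19.8 CPM at 2 h. The 10 nM groups had 1661 and 1555 CPM at 1 h, and 773 and 776 CPM at 2 h. Only the 0.03 nM groups overlapped each other. The rise was 8.92-fold at 0.03 nM for 1 h (log2 3.16 ± 0.14, edgeR adjusted p = 2.7e-07) and 8.94-fold at 2 h (log2 3.16 ± 0.14). At 10 nM it was 766-fold at 1 h (log2 9.58 ± 0.17, edgeR adjusted p = 7.7e-12) and 369-fold at 2 h (log2 8.53 ± 0.16). Its TPM went from 3.92 and 4.43 in untreated cells to 2602 and 2472 at 10 nM for 1 h, at rank 39 in both libraries.

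The 2 leading ligands differed in how they divided their response between the doses. Tnf stood 23.7-fold higher at 10 nM than at 0.03 nM after 1 h (log2 4.56 ± 0.18) and 7.80-fold higher after 2 h (log2 2.96 ± 0.17). Tnfsf9 stood 85.9-fold higher at 1 h (log2 6.42 ± 0.14) and 41.2-fold higher at 2 h (log2 5.37 ± 0.13). The ratio of Tnf to Tnfsf9 in TPM was 2.95 and 3.43 in untreated cells. It was 6.13 and 6.66 at 0.03 nM for 1 h, 9.53 and 9.35 at 0.03 nM for 2 h, 1.76 and 1.79 at 10 nM for 1 h, and 1.83 and 1.74 at 10 nM for 2 h. In TPM, then, Tnf exceeded Tnfsf9 most at the low dose in both experiments, a difference for which no test was run.

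Tnfsf10, which encodes the apoptosis-inducing ligand TRAIL, passed the test in 1 of the 4 comparisons with untreated cells. Untreated cells had 5.86 and 7.04 CPM, the 0.03 nM groups 5.88 and 9.85 CPM at 1 h and 8.49 and 7.82 CPM at 2 h, and the 10 nM 1 h group 6.94 and 6.42 CPM. The 10 nM 2 h libraries had 26.1 and 43.5 CPM. They lay above all the others, while neighbours in the order of the other groups overlapped. The rise was 5.39-fold (log2 2.43 ± 0.28, edgeR adjusted p = 7.0e-05), with log2 differences of 2.14 in experiment 1 and 2.62 in experiment 2. The other 3 differences from untreated cells were between 0.05 and 0.34 on the log2 scale, with edgeR adjusted p of 0.557 to 0.983.

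Lta and Ltb flank Tnf and stayed at low counts. In mm9 Lta (chr17:35340110-35342296, minus strand) lies 1168 bases beyond one end of Tnf, and Ltb (chr17:35331452-35333250, plus strand) ends 3085 bases before the other. Lta had 0 and 0 counts in untreated cells, 4 and 0 at 0.03 nM for 1 h, 4 and 2 at 0.03 nM for 2 h, 6 and 11 at 10 nM for 1 h, and 10 and 16 at 10 nM for 2 h. With the untreated group set at 3 counts over its 2 libraries in place of 0, and libraries scaled by their totals, ratios to it were computed. For Lta the ratio was 5.07 at 10 nM for 1 h and 8.24 at 2 h. These ratios depend on that setting and are not lower limits. At 0.03 nM the few counts gave no call. Exact Poisson 95% intervals, which cover counting error only, were 0 to 3.69 counts for the untreated sum, 1.09 to 10.2 for 0.03 nM at 1 h, 2.20 to 13.1 for 0.03 nM at 2 h and 9.90 to 27.2 for 10 nM at 1 h. Lta did not pass the filter. When no filter was applied, Lta was higher than in untreated cells by log2 6.16 ± 1.91 at 10 nM for 1 h and 7.04 ± 1.81 at 2 h. The edgeR adjusted p was 0.0154 and 0.00203 there, and 1 and 0.268 at 0.03 nM for 1 h and 2 h. Whether the fold changes of Lta differed from those of Tnf was not tested.

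Ltb had 18 to 68 counts in a library. It stood at 1.02 and 1.33 CPM in untreated cells, 1.30 and 0.527 at 0.03 nM for 1 h, 1.48 and 1.63 at 0.03 nM for 2 h, 1.07 and 0.846 at 10 nM for 1 h, and 1.38 and 0.616 at 10 nM for 2 h. Most groups overlapped, and none of the 9 comparisons passed the test. Its differences from untreated cells ran from -0.36 to 0.40 on the log2 scale with SE of 0.44 to 0.47, so a small change was not detectable at this depth. With libraries scaled by their totals alone, Ltb was lower at 10 nM than at 0.03 nM after 2 h (log2 -1.12, edgeR adjusted p = 0.0468). The median of all tested genes in that comparison was then -0.522. With TMM the Ltb difference was -0.63, with an edgeR adjusted p of 0.274. In separate experiments it was -0.10 and -1.33.

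The genes around the cluster did not share the size of the Tnf response. The 5 genes on either side in the count table were Apom, Bag6, Prrc2a, Aif1 and Lst1 beyond Ltb, and Nfkbil1, Atp6v1g2, Ddx39b, H2-D1 and LOC547349 beyond Lta. Apom had no counts. The other 9 differed from untreated cells by -1.04 to 0.57 on the log2 scale in the 4 groups, against 4.17 to 8.73 for Tnf. The lowest value was that of Atp6v1g2, a subunit of the vacuolar proton pump, at 10 nM for 1 h (edgeR adjusted p = 0.0025). The highest was that of H2-D1, an MHC class I gene whose counts are uncertain because it has close copies and overlaps LOC547349, at 10 nM for 2 h. No exon of another gene in the table overlapped an exon of the 8 members, so reads of a listed neighbour were not shared by exon position.

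Among the 3 receptor members, Tnfrsf1b was the most abundant in TPM in each group and Tnfrsf1a came next. Of the 2 TNF receptors, TNFR2 thus had the higher messenger level, and it also had the larger fold change at 10 nM. Tnfrsf1b (chr4:144802271-144836773 in mm9, minus strand, 10 exon intervals) had 645 and 635 CPM in untreated cells. It had 685 and 683 CPM at 0.03 nM for 1 h, 837 and 824 at 0.03 nM for 2 h, 1810 and 1780 at 10 nM for 1 h, and 2731 and 2753 at 10 nM for 2 h. No 2 groups overlapped, and experiment 2 differed from experiment 1 within a group by -0.02 to 0.01 on the log2 scale. The rise was 1.30-fold at 0.03 nM for 2 h (log2 0.38 ± 0.06, edgeR adjusted p = 0.0025), 2.80-fold at 10 nM for 1 h (log2 1.49 ± 0.07) and 4.28-fold at 10 nM for 2 h (log2 2.10 ± 0.07, edgeR adjusted p = 2.1e-10). At 0.03 nM for 1 h the difference was 0.10 ± 0.06 with an edgeR adjusted p of 0.907. In a fit of only the 2 groups compared, the 0.03 nM 2 h difference was 0.38 with an edgeR adjusted p of 0.0607.

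Tnfrsf1a (chr6:125299741-125312501 in mm9, plus strand, 10 exon intervals) moved little before 2 h at the high dose. Its values were 146 and 141 CPM in untreated cells, 140 and 157 at 0.03 nM for 1 h, 151 and 170 at 0.03 nM for 2 h, 175 and 188 at 10 nM for 1 h, and 296 and 300 at 10 nM for 2 h. The 0.03 nM 1 h group overlapped both the untreated and the 0.03 nM 2 h group, and the latter pair did not overlap. Tnfrsf1a rose 2.08-fold at 10 nM for 2 h (log2 1.05 ± 0.09, edgeR adjusted p = 5.9e-07). It was also called higher at 10 nM for 1 h (log2 0.34 ± 0.08, edgeR adjusted p = 0.0076), but the sign turned with libraries scaled by their totals alone (log2 -0.03, adjusted p = 0.807). That call was lost when experiment 2 gave no untreated library (log2 0.32, edgeR adjusted p = 0.0651) or no 10 nM 1 h library (log2 0.29, edgeR adjusted p = 0.0816). In TPM, Tnfrsf1a averaged 163.1 ± 0.3 (SD, n = 2) in untreated cells, 163.9 ± 10.0 at 10 nM for 1 h and 233.5 ± 4.2 at 10 nM for 2 h. At 0.03 nM it differed from untreated cells by 0.05 ± 0.08 at 1 h and 0.16 ± 0.08 at 2 h on the log2 scale, and neither passed the test. Leaving out the experiment 1 library of that 2 h group gave 0.24 with an edgeR adjusted p of 0.0431.

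The ratio of Tnfrsf1b to Tnfrsf1a in TPM was 1.94 and 1.97 in untreated cells, 4.53 and 4.14 at 10 nM for 1 h, and 4.05 and 4.02 at 10 nM for 2 h. At 0.03 nM it ran from 1.91 to 2.43. Both experiments thus showed the 2 receptor messengers further apart at the high dose, whichever hour is taken.

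Fas (chr19:34365149-34402260 in mm9, plus strand, 10 exon intervals) rose in steps with dose and time. It had 6.69 and 5.83 CPM in untreated cells, 8.46 and 7.55 at 0.03 nM for 1 h, 17.7 and 20.2 at 0.03 nM for 2 h, 43.0 and 41.9 at 10 nM for 1 h, and 62.4 and 55.8 at 10 nM for 2 h. No 2 groups overlapped. The difference at 0.03 nM for 1 h (log2 0.35 ± 0.12) did not pass the test, with an edgeR adjusted p of 0.365. Fas rose 3.02-fold at 0.03 nM for 2 h (log2 1.60 ± 0.12, edgeR adjusted p = 2.8e-06), 6.78-fold at 10 nM for 1 h (log2 2.76 ± 0.12) and 9.43-fold at 10 nM for 2 h (log2 3.24 ± 0.12, edgeR adjusted p = 6.2e-10).

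**Figure D2:**
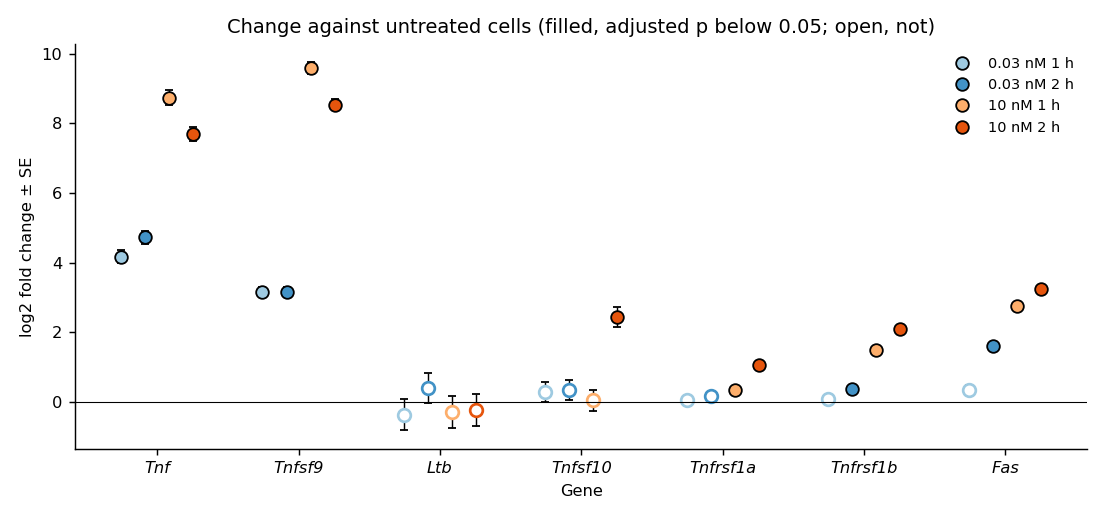
Log2 fold change against untreated cells for the 7 tested genes, with the SE as error bars, for the 4 treated groups (2 libraries each); filled points have an edgeR adjusted p below 0.05 and open points do not. Tnf and Tnfsf9 were filled in each group, the receptors and Tnfsf10 mainly at 10 nM, and Ltb in none.

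Counted over the 7 tested members, 2 rose at 0.03 nM for 1 h, where 1.53% of all tested genes were called in either direction. At 0.03 nM for 2 h 4 rose (9.82% of all), at 10 nM for 1 h 5 rose (36.9% of all) and at 10 nM for 2 h 6 rose (58.7% of all). No member fell against untreated cells. Called upward in these 4 groups were 1.42%, 6.45%, 18.5% and 28.6% of all tested genes, in the same order. Between the doses, 5 members were higher at 10 nM after 1 h (35.3% of all genes called, 18% upward). After 2 h 6 were higher (52.8% of all called, 25.6% upward). The high-dose shares of all genes are large, so a call there says little about the members by itself, and the sizes tell more. The members' median log2 fold changes were 0.29, 0.40, 1.49 and 2.43 in the 4 groups, in the order above, and those of all tested genes were -0.0007, -0.0008, -0.016 and -0.030.

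Receptor messengers at 10 nM were higher than at 0.03 nM by 1.39 ± 0.07 for Tnfrsf1b at 1 h and 1.72 ± 0.07 at 2 h on the log2 scale. For Fas these differences were 2.41 ± 0.11 and 1.64 ± 0.11. For Tnfrsf1a they were 0.29 ± 0.08 (edgeR adjusted p = 0.0178) and 0.89 ± 0.09. The 1 h difference of Tnfrsf1a turned to -0.06 with library totals, and its call was lost when the experiment 1 library at 0.03 nM (log2 0.22, edgeR adjusted p = 0.157) or the experiment 2 library at 10 nM was left out (log2 0.24, edgeR adjusted p = 0.142). Tnfsf10 was 2.09 ± 0.28 higher at 10 nM than at 0.03 nM after 2 h, and -0.24 ± 0.29 after 1 h, which did not pass the test.

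**Figure D3:**
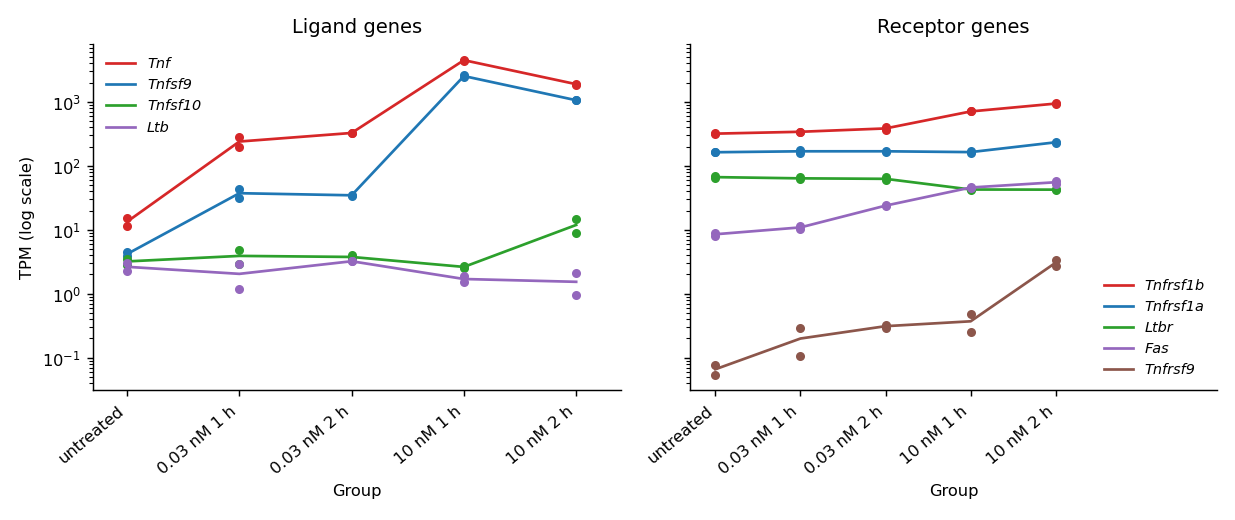
TPM of ligand genes (left) and receptor genes (right) in the 5 groups on a log axis; points are the 2 libraries of each group and lines join the group means. Tnf and Tnfsf9 stood above Tnfrsf1b at 10 nM only, and Tnfrsf1b was the highest of the receptors plotted in each group.

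Placed on 1 length-corrected scale, ligand and receptor messengers changed places. In untreated cells Tnf stood at 0.0366 and 0.0472 of the TPM of Tnfrsf1b. It stood at 0.576 and 0.831 at 0.03 nM for 1 h, and at 0.807 and 0.896 at 0.03 nM for 2 h. At 10 nM it stood at 6.43 and 6.25 at 1 h, and at 2.06 and 1.96 at 2 h. Tnf was thus below Tnfrsf1b in all 6 libraries of the untreated and 0.03 nM groups and above it in all 4 of the 10 nM groups. Relative to Tnfrsf1a it stood at 0.0708 and 0.0932 in untreated cells and at 1.23 to 29.1 in the 8 treated libraries, highest at 10 nM for 1 h.

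From 1 h to 2 h, the ligands Tnf and Tnfsf9 went one way at the high dose and the receptors and Tnfsf10 the other. At 10 nM, 2 members fell and 4 rose, where 42.8% of all tested genes were called. Tnf fell by 1.05 ± 0.15 on the log2 scale (edgeR adjusted p = 0.00041) and Tnfsf9 fell by 1.05 ± 0.11 (edgeR adjusted p = 1.4e-05). In separate experiments the Tnf difference was -1.05 and -1.04. Tnfsf10 rose by 2.38 ± 0.29, Tnfrsf1a by 0.71 ± 0.08, Tnfrsf1b by 0.61 ± 0.06 and Fas by 0.48 ± 0.10.

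At 0.03 nM, 2 members rose from 1 h to 2 h and none fell, where 5.11% of all tested genes were called. Fas rose by 1.24 ± 0.11 on the log2 scale (edgeR adjusted p = 8.2e-05). Tnfrsf1b rose by 0.28 ± 0.06 (edgeR adjusted p = 0.0258), a call that was lost on leaving out any 1 library other than the 2 of 0.03 nM at 2 h, with adjusted p of 0.0527 to 0.138. Tnfsf9 differed by 0.00 ± 0.12. Tnf differed by 0.56 ± 0.15 with an edgeR adjusted p of 0.081, and was higher at 2 h in both experiments (log2 0.78 and 0.38). With a replicate block for the experiment the Tnf difference was 0.57 with an edgeR adjusted p of 0.0319. DESeq2 (log2 0.55, adjusted p = 0.00456) and limma-voom (log2 0.58, adjusted p = 0.0378) also called it. When the experiment 2 library at 1 h was left out it was 0.84, with an edgeR adjusted p of 0.00224.

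The difference between these 2 time courses, the interaction of dose and time, passed the test for 6 of the 7 tested members, where 22% of all tested genes were called. It was -1.60 ± 0.22 for Tnf (edgeR adjusted p = 0.00066), -1.06 ± 0.16 for Tnfsf9 and -0.77 ± 0.15 for Fas. It was 2.33 ± 0.40 for Tnfsf10 (edgeR adjusted p = 0.0035), 0.60 ± 0.12 for Tnfrsf1a and 0.33 ± 0.09 for Tnfrsf1b. The Tnfrsf1b value had an edgeR adjusted p of 0.021, which became 0.0501 to 0.0980 on leaving out any 1 library of 0.03 nM at 1 h, 10 nM at 1 h or 10 nM at 2 h. With library totals it was 0.20 with an adjusted p of 0.126. Fas, then, rose at both doses and rose further at the low one, whereas Tnf and Tnfsf9 fell at the high dose.

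**Figure D4:**
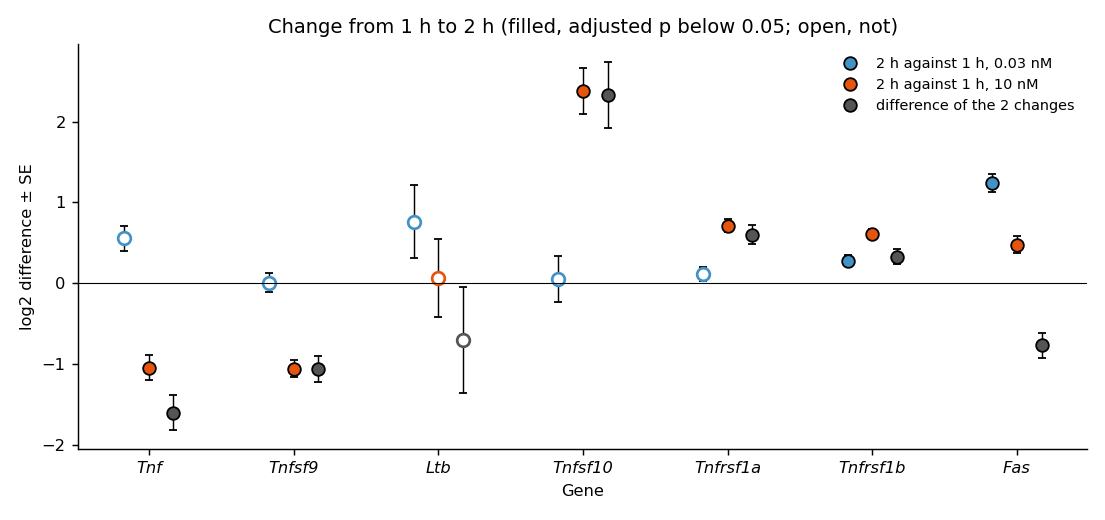
Log2 difference between 2 h and 1 h at each dose, and the difference of those 2 changes (the interaction), with the SE as error bars, for the 7 tested genes; filled points have an edgeR adjusted p below 0.05. At 10 nM Tnf and Tnfsf9 lie at -1.05, and Tnfsf10, Tnfrsf1a, Tnfrsf1b and Fas lie above 0.

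The 6 binding partners of the members differed widely in level. Ltbr, the receptor of the lymphotoxin complex, averaged 66.6 TPM in untreated cells. It averaged 42.6 TPM at 10 nM for 1 h and 42.4 TPM at 2 h, but TPM was not scaled by TMM. By the test it was lower at 10 nM for 1 h (log2 -0.31 ± 0.09, edgeR adjusted p = 0.0181). At 10 nM for 2 h the difference was -0.11 ± 0.09, with an edgeR adjusted p of 0.306. Tnfrsf9, the receptor of the Tnfsf9 ligand, had 2 and 3 counts in untreated libraries and 111 and 129 at 10 nM for 2 h. It rose by 2.76 ± 0.66 at 10 nM for 1 h and by 5.99 ± 0.55 at 2 h (edgeR adjusted p = 1.8e-06). At that time it stood at 2.75 and 3.37 TPM, against 1054 and 1070 TPM for Tnfsf9. Fasl, the ligand of Fas, had 0 to 2 counts in a library. Tnfrsf10b, the TRAIL death receptor, rose by 1.18 ± 0.31 at 10 nM for 1 h and by 1.29 ± 0.31 at 2 h. The TRAIL decoy receptor genes Tnfrsf22 and Tnfrsf23 differed by -1.54 and -0.43 at 10 nM for 2 h, and both passed the test (edgeR). They are close copies of each other, so the split of their reads is uncertain.

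Of the 13 other TNF superfamily ligands, 8 passed the filter. None was called by edgeR at 0.03 nM for 1 h (1.53% of all tested genes called) or for 2 h (9.82% of all). At 10 nM for 1 h 3 rose and 2 fell (36.9% of all tested genes called), and at 2 h 4 rose and 1 fell (58.7% of all), with list medians of 0.39 and 0.85 against -0.016 and -0.030 over all genes. Tnfsf4 (OX40 ligand), which costimulates T cells, rose by 6.03 ± 0.27 and 7.06 ± 0.26 on the log2 scale. Tnfsf15 (TL1A) rose by 2.36 ± 0.24 at 1 h and 5.28 ± 0.24 at 2 h. Tnfsf14 (LIGHT), a ligand of Ltbr, rose by 1.10 ± 0.17 and 0.90 ± 0.17. Tnfsf18 (GITR ligand) rose at 2 h (2.30 ± 0.67), and Tnfsf12 (TWEAK) fell (-0.33 ± 0.09 and -0.58 ± 0.09). Leaving out the experiment 1 untreated library or either library of 10 nM at 1 h left 3 calls in place of 5 at 1 h. At 0.03 nM for 2 h DESeq2 called 2, and edgeR called 1 without the experiment 1 library of either the untreated or the 0.03 nM 2 h group.

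Of the 25 other TNF receptor superfamily genes, 18 passed the filter. No gene was called at 0.03 nM for 1 h (1.53% of all tested genes called) and 1 rose at 2 h (9.82% of all). At 10 nM for 1 h 4 rose and 2 fell, and at 2 h 6 rose and 5 fell, where 36.9% and 58.7% of all tested genes were called, so the share on this list was near that of all genes. The list medians at 10 nM were -0.10 and -0.16, against -0.016 and -0.030 over all genes. Cd40, the costimulatory receptor for CD40 ligand on antigen-presenting cells, rose by 2.86 ± 0.23 at 0.03 nM for 2 h, 5.82 ± 0.25 at 10 nM for 1 h and 6.91 ± 0.26 at 2 h. Tnfrsf11a (RANK), which drives osteoclast formation, rose by 1.63 ± 0.10 at 10 nM for 2 h. Relt fell (-0.66 ± 0.17 and -2.40 ± 0.21 at 10 nM), and Tnfrsf12a (the TWEAK receptor) rose by 1.11 ± 0.23 at 10 nM for 1 h. Tnfrsf26 fell by 0.92 ± 0.15 at 2 h, in the same gene cluster as Tnfrsf22 and Tnfrsf23. In place of 6 at 10 nM for 1 h, 10 of the list were called with library totals and 3 when the experiment 2 library of that group was left out. In place of 0 at 0.03 nM for 1 h, 1 was called by DESeq2, with the replicate block, and when the experiment 1 library of that group was left out. In place of 1 at 0.03 nM for 2 h, 5 were called when the experiment 1 library of that group was left out, and 2 with no filter, by DESeq2, with the replicate block or on leaving out either library of 0.03 nM at 1 h.

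All 35 genes of TNF processing and receptor signalling were tested. At 0.03 nM 5 rose at 1 h, and 13 rose and 2 fell at 2 h. At 10 nM 20 rose and 5 fell at 1 h, and 24 rose and 4 fell at 2 h. Over all tested genes 1.53%, 9.82%, 36.9% and 58.7% were called in these 4 groups, in the same order. The list medians were 0.09, 0.16, 0.38 and 0.86, against -0.0007, -0.0008, -0.016 and -0.030 over all genes. Tnfaip3 (A20), the ubiquitin-editing enzyme that limits NF-kB signalling, rose by 2.50 ± 0.13 and 2.80 ± 0.13 at 0.03 nM, and by 6.79 ± 0.16 and 6.59 ± 0.15 at 10 nM, for 1 h and 2 h in turn. Its partner Tnip1 rose by 0.40 ± 0.08, 1.78 ± 0.09, 3.09 ± 0.09 and 3.73 ± 0.09 in the same order. Cflar (c-FLIP), which blocks caspase-8 at death receptors, rose by 0.83 ± 0.13, 1.76 ± 0.14, 3.91 ± 0.15 and 4.25 ± 0.15 in that order too. Birc3 (cIAP2), a ubiquitin ligase of TNF receptor complexes, rose by 0.89 ± 0.11 and 1.71 ± 0.11 at 0.03 nM. At 10 nM it rose by 3.11 ± 0.11 and 2.62 ± 0.11. Its relative Birc2 rose by 1.79 ± 0.07 and 1.95 ± 0.07 at 10 nM. Mapkapk2, the kinase downstream of p38 that raises TNF output, rose by 0.98 ± 0.08 at 0.03 nM for 2 h and by 2.54 ± 0.08 and 3.06 ± 0.09 at 10 nM. The adaptor Traf3 rose by 1.23 ± 0.09 at 0.03 nM for 2 h, and by 0.93 ± 0.09 and 0.86 ± 0.09 at 10 nM. The kinase Map3k8 rose by 0.44 ± 0.09 at 0.03 nM for 1 h. Its difference of 0.17 ± 0.09 at 0.03 nM for 2 h did not pass the test. At 10 nM Map3k8 rose by 0.38 ± 0.09 at 1 h and 2.24 ± 0.09 at 2 h.

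Of the genes that release TNF from the cell, Rhbdf2 (iRhom2), which carries ADAM17 to the cell surface, rose by 3.04 ± 0.10 at 10 nM for 2 h. Adam17 itself, named here for its role after its values were seen, rose by 0.99 ± 0.08 at 10 nM for 1 h and 1.11 ± 0.08 at 2 h. At 0.03 nM for 1 h the count of 5 on this list became 3 in a fit of only the 2 groups compared, 2 on leaving out 1 untreated library or the treated library of experiment 2, and 3 on leaving out any 1 of the 10 nM libraries.

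Among the genes that act on the Tnf messenger, some rose and some fell. Of 11, all tested, 2 rose at 0.03 nM for 1 h (1.53% of all tested genes called), and 2 rose and 1 fell at 2 h (9.82% of all). At 10 nM 6 rose and 2 fell at 1 h (36.9% of all tested genes called), and 6 rose and 3 fell at 2 h (58.7% of all). The list medians at 10 nM were 0.49 and 0.41, against -0.016 and -0.030 over all genes. At 0.03 nM they were -0.01 and -0.08, against -0.0007 and -0.0008. Zfp36 (tristetraprolin), which binds AU-rich sequence such as that printed above and speeds decay, rose by 2.01 ± 0.13 and 1.24 ± 0.13 at 0.03 nM and by 4.95 ± 0.15 and 3.24 ± 0.14 at 10 nM. Zc3h12a (Regnase-1), an RNase that cuts inflammatory messengers, rose by 1.28 ± 0.09, 1.61 ± 0.09, 3.03 ± 0.09 and 2.79 ± 0.09. The tristetraprolin relative Zfp36l1 rose by 2.00 ± 0.15 at 10 nM for 1 h and differed from untreated cells by -0.18 at 2 h, which did not pass the test. Another relative, Zfp36l2, fell by 0.82 ± 0.14 at 0.03 nM for 2 h and fell by 4.33 ± 0.17 at 10 nM for 2 h. Elavl1 (HuR), which stabilises AU-rich messengers, rose by 0.69 ± 0.07 and 0.93 ± 0.07 at 10 nM, and Tia1, a repressor of Tnf translation, fell (-0.93 ± 0.13 and -1.31 ± 0.14). At 0.03 nM the count at 1 h became 1 in a fit of only the groups compared, and the count at 2 h became 7 when the experiment 1 library of that group was left out.

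**Figure D5:**
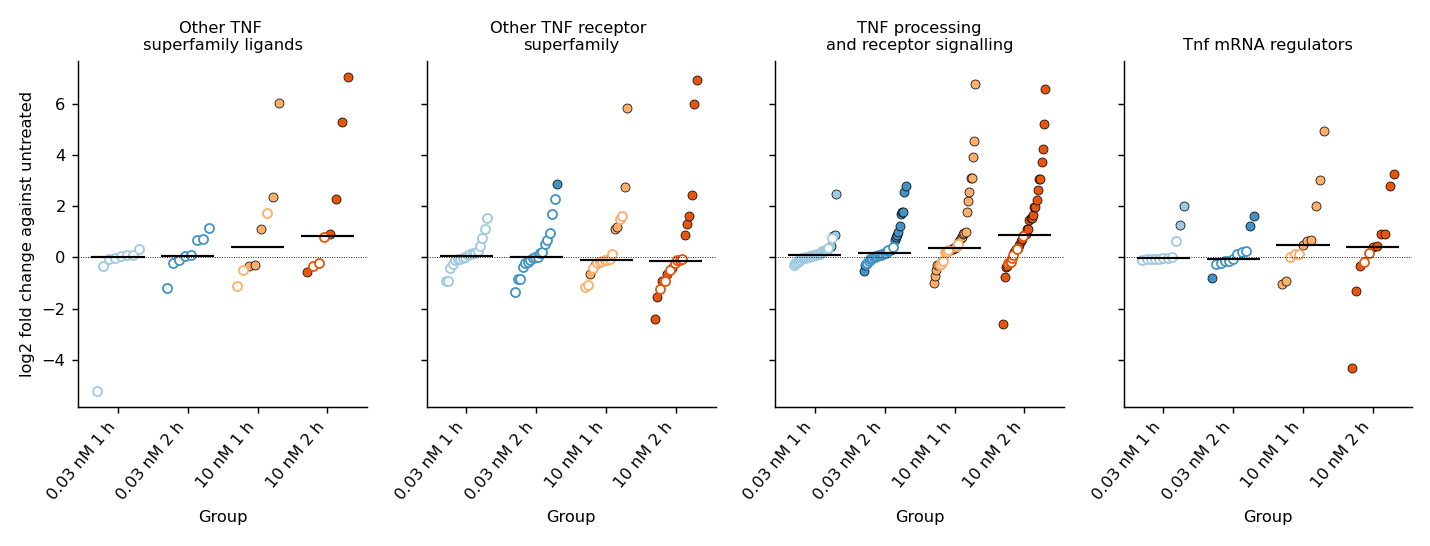
Log2 fold change against untreated cells for the tested genes of 4 lists (8 ligands, 18 receptors, 35 processing and signalling genes and 11 regulators of the Tnf messenger) in the 4 treated groups; filled points have an edgeR adjusted p below 0.05 and bars are list medians. Most filled points are at 10 nM, and the lowest point of the ligand list at 0.03 nM for 1 h is Tnfsf18, at -5.22 with an SE of 1.59 and an adjusted p of 0.277.

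Genes whose pattern was nearest to each member were found among 11096 genes, by the root mean square (RMS) difference of log2 CPM over the 10 libraries, each gene centred on its untreated mean. For Tnf they were Maff (0.37), Il1b (0.64), Dusp2 (0.73), Socs3 (0.88) and Tnfsf9 (0.99). For Tnfsf9 they were Il1b (0.45), Ptgs2 (0.57) and Gem (0.84). Nearest to Tnfsf10 were Olfr56 (0.19), Gm4902 (0.19) and Zcchc2 (0.21). For Tnfrsf1a they were Chmp4b (0.05), Lrp10 (0.07) and Mak16 (0.07), and for Tnfrsf1b they included Rnf103 (0.11) and Ebi3 (0.12). Fas had Nfkb2 (0.22), Orai2 (0.23) and Gch1 (0.25), and Ltb, at low counts, had Cacna1f (0.31), Gm13375 (0.33) and Cisd1 (0.34). With Pearson correlation as the measure, 1 of the 5 genes for Tnf was the same (Maff), and none of the 3 for any other member. All 10 libraries enter both measures, so the group differences given above set most of the likeness.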

How the data were processed

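Polyadenylated RNA of 10 libraries was sequenced with a directional library kit, per the labels' protocols. Named in the submitters' processing notes, without roles, are mm9, DESeq2, featureCounts 1.4.5-p1, TopHat2 2.0.11 and bcl2fastq 2.15.0.4. The deposited count table gives whole reads for each gene over its exons, with exonic length, per the file headers. The other table the authors deposited holds regularised log2 values. Whether counting used strand is not given in the sources used here.

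After filterByExpr on the 5 groups and TMM scaling, edgeR 4.0.16 (R 4.3.3) made 1 quasi-likelihood fit (robust, 1 mean per group, 5 residual degrees of freedom) of the counts of all 10 libraries, with 9 contrasts. Calls needed a Benjamini-Hochberg adjusted p below 0.05 over 12918 genes. SE is the log2 fold change divided by the root of F. CPM and TPM were computed here from the counts. The code was tested on simulated data. Alternatives were DESeq2 1.42.0, limma-voom (limma 3.58.1), other scalings, no filter, only the groups compared, a replicate block and leaving out each library.

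The labels' experiment number marks libraries of 1 experiment and so pairs them. Deviations from group means correlated between same-numbered libraries at 0.0397 to 0.236 with 7 of the 10 pairs of groups over 0.1 and a median of 0.177. The members, the 4 gene lists and the marker lists were chosen with earlier results of these data known. Besides the members and their 6 binding partners, up to 5 called genes of a list with the smallest p in a contrast with untreated cells are named, and for likeness 5 genes for Tnf and 3 for other members, 1 of which is not reported here. Sequences came from RefSeq and GENCODE on GRCm38, and no mm9 coordinate was used with them.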

Additional observations from a re-analysis of the deposited data

Results flagged for a closer look

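For 6 members the change from 1 h to 2 h differed between the doses by the test of the interaction in edgeR. The difference, 10 nM minus 0.03 nM on the log2 scale, was -1.60 for Tnf, -1.06 for Tnfsf9 and -0.77 for Fas. It was 2.33 for Tnfsf10, 0.60 for Tnfrsf1a and 0.33 for Tnfrsf1b. For Tnfsf10 the 2 libraries that set the value apart, those of 10 nM at 2 h, stood at 26.1 and 43.5 CPM. With 2 libraries in a group, no library could be tested for standing apart from its group.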

How the results depend on the processing

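Of the 63 comparisons of the 7 tested members, 42 were called, 36 of them in all 17 alternative fits and 38 in each of the 10 fits that left out 1 library. The Tnfrsf1a difference turned to -0.0259 at 10 nM for 1 h against untreated cells and to -0.0636 against 0.03 nM at 1 h when libraries were scaled by their totals. That scaling moved the median of all genes to -0.382 at 10 nM for 1 h and -0.586 at 2 h against untreated cells, so changes there are best read relative to it. It called 8035 genes with 1280 higher at 10 nM for 1 h, in place of 4761 with 2393 higher, and 9801 with 1903 higher at 2 h, in place of 7580 with 3698. The members called at 0.03 nM for 1 h were 1 in place of 2 in a fit of only the groups compared. For 2 h against 1 h at 0.03 nM they were 1 in place of 2 with library totals and in a fit of only the groups compared, and 1 to 2 on leaving out 1 library. In the paired analysis, the replicate block moved the Tnf difference in that comparison to 0.57 and over the threshold, and changed no other call of a member. In the authors' rlog values the 36 called differences of members in comparisons outside the interaction kept their sign, and those values were up to 3.76 lower on the log2 scale. Having 2 libraries a group limits the precision, and counts of Lta, Fasl and Tnfrsf9 limit what can be said of them.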
